A study of Mus musculus with 9 samples.

Results

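The genes described here encode SR proteins, TRA2 proteins, heterogeneous nuclear ribonucleoproteins (hnRNPs) and CLK kinases, which act together in the choice of exons during mRNA splicing. They were taken as every protein-coding row of the deposited gene table named Srsf with a number, Tra2a or Tra2b, any name that begins with Hnrnp, or Clk1 to Clk4. The rule used names only and gave 37 of the table's 54532 rows, namely 11 Srsf genes, 2 Tra2 genes, 20 hnRNP genes and 4 Clk genes. A further 2 rows matched the names but were not annotated as protein-coding and were left out. Polyadenylated RNA was sequenced from 4T1 cells, a mouse mammary carcinoma line, in 3 groups of 3 libraries. Au_TCPP cells received Au/Cu-TCPP(Fe)-PEG, which the labels describe as a glucose-like oxidase that also consumes glutathione. Cu_TCPP cells received Cu-TCPP(Fe)-PEG, described as consuming glutathione, and Control cells received medium alone. All were grown in high glucose medium with serum, the series' design text gives 24 h of treatment, and neither the labels nor that text state a dose.

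SR proteins bind exonic enhancers through RNA recognition motifs and recruit the spliceosome through a tail rich in arginine and serine. TRA2 proteins resemble them and favour exons rich in GAA repeats, while many hnRNPs bind silencers and oppose exon inclusion. CLK kinases phosphorylate the arginine-serine tail, which moves SR proteins out of nuclear speckles, and many genes of these families limit their own mRNA through an exon that carries a premature stop codon and sends the transcript to nonsense-mediated decay (NMD).

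Total counts lay between 15477324 and 17494776 per library, and the smallest change that can be called depends on a biological coefficient of variation of 10.6%. Whether the 3 libraries of a group are separate cultures is not stated, so a p-value covers the spread between the libraries at hand, which may be technical. Of 10 epithelial markers fixed for the line, 9 had counts. Their summed level was 3909 to 4405 CPM (counts per 1000000 of the library's total) in Au_TCPP, 3104 to 3438 in Cu_TCPP and 3294 to 3561 in Control. The 8 macrophage markers summed to 63.2 to 87.2 CPM in Au_TCPP, 30.2 to 33.4 in Cu_TCPP and 45.6 to 48.9 in Control, with Adgre1 at 0, and the 8 fibroblast markers to 21.2 to 25.9, 17.7 to 21.03 and 39.2 to 45.4 in the same order, with Col3a1, Lum, Pdgfrb and Thy1 at 0. The 8 endothelial markers summed to 24.1 to 29.3 CPM in Au_TCPP, 38.3 to 40.1 in Cu_TCPP and 46.5 to 51.6 in Control, with Cldn5 and Emcn at 0, and the 8 lymphocyte markers to at most 3.31 in any library, with Ms4a1 at 0. Mean counts were under 10 for 5 of the 8 macrophage, 6 of the 8 fibroblast and 7 of the 8 endothelial markers. These 3 sums therefore rest on few genes, the fibroblast sum mostly on Pdgfra and the endothelial sum mostly on Eng. The epithelial, macrophage, fibroblast and endothelial sums moved with the treatments and their part in the results was not tested. In bulk RNA, fewer cells of a type and less RNA per cell cannot be told apart. Au_TCPP replicate 2 stood apart from its group, with a median absolute deviation of 0.27 on the log2 scale over the tested members, against 0.04 to 0.16 in the other libraries. It also had the highest share of mitochondrial counts, 2.37%, where the lowest library had 1.09%.

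Levels are given as CPM with library sizes scaled by the trimmed mean of M values (TMM), and differences as log2 fold changes with their standard errors (SE). A gene is called higher or lower where the adjusted p of edgeR's quasi-likelihood test, with Benjamini-Hochberg adjustment over the 13915 genes tested, is under 0.05. Of the members, 36 passed the filter on low counts. Srsf12 had 0 counts in each of the 9 libraries, which by a floor of 3 counts allows a level of up to 0.194 CPM in the shallowest, a limit that covers counting error only.

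Au_TCPP was first compared with Control, which asks what the material with gold did to the RNA of these genes. Most of them were higher: 26 of the 36 tested members were called higher in Au_TCPP and 5 lower, and the median log2 fold change was 0.67. Over all genes tested 69.1% were called, 34.4% higher and 34.7% lower, with a median of -0.01. The libraries of the groups did not overlap for 31 members, 26 above and 5 below, where 35.3% of all genes lay above and 36.6% below. By role, 8 of 10 Srsf genes, both Tra2 genes, 14 of 20 hnRNP genes and 2 of 4 Clk genes were called higher, and no Srsf gene, 4 hnRNP genes and 1 Clk gene lower. This split rests on TMM: with library totals alone, which moves the median of all genes by -0.43 and calls 2626 genes higher and 7098 lower, 18 members were higher and 9 lower.

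**Figure D1:**
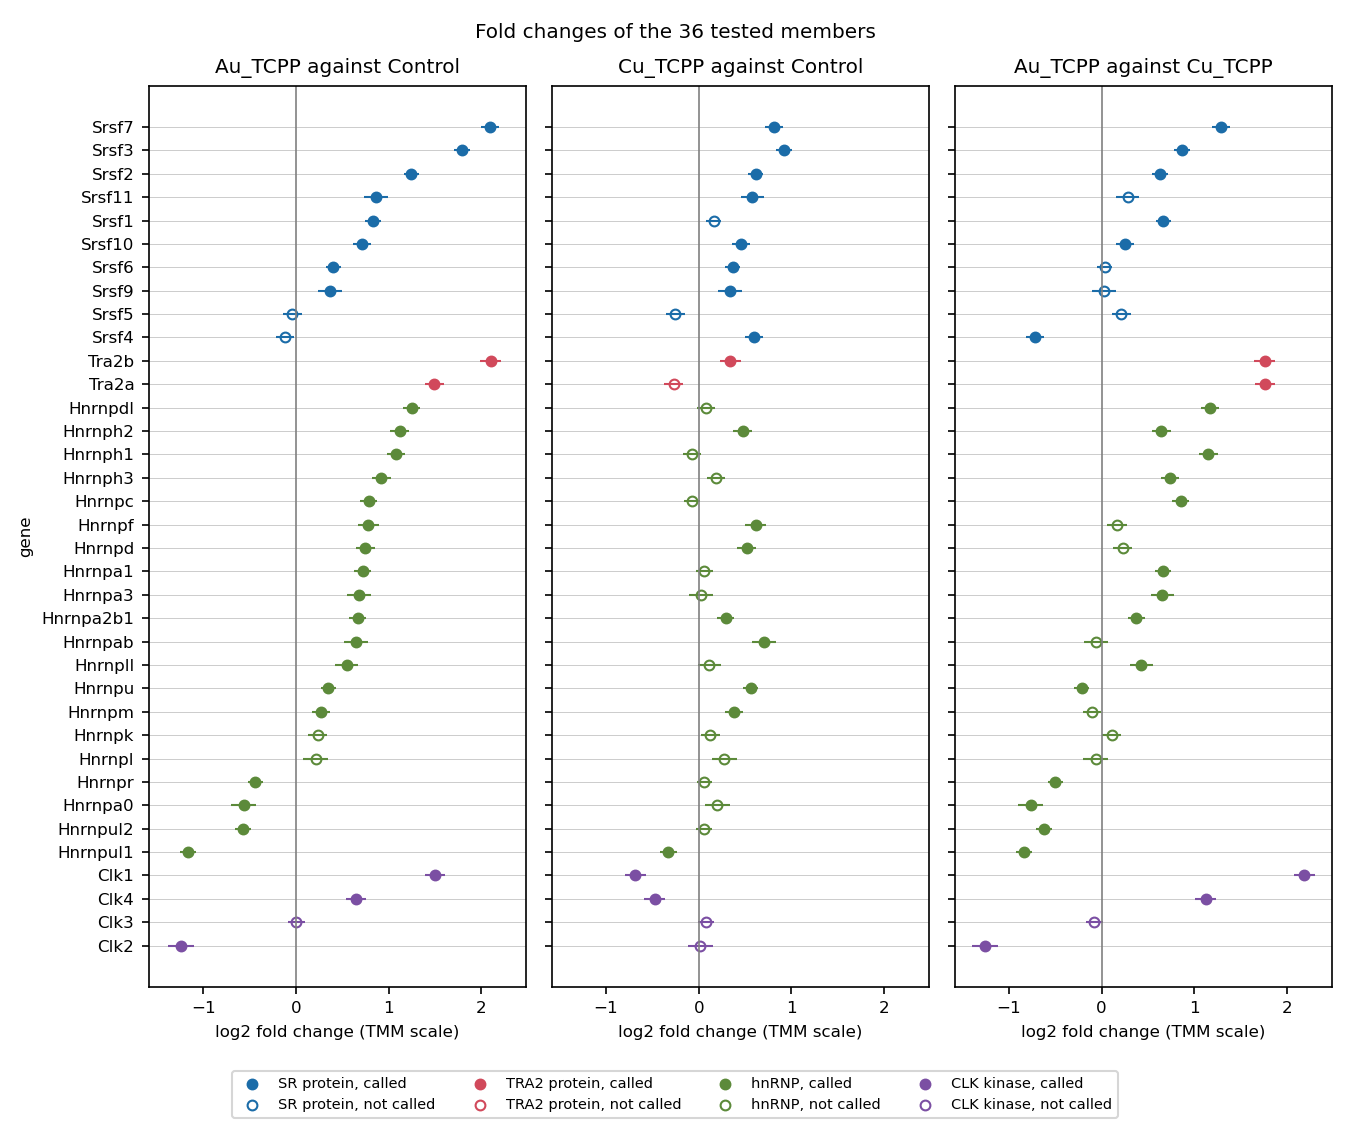
Log2 fold changes (x axis, TMM scale) of the 36 tested members (y axis, grouped by role) in the comparisons of Au_TCPP with Control, Cu_TCPP with Control and Au_TCPP with Cu_TCPP, with SE bars. Filled points are called and open points are not. Tra2b, Srsf7 and Srsf3 lie farthest to the right in Au_TCPP against Control, Clk1 and Clk4 lie on opposite sides of 0 in the 2 comparisons with Control, and Hnrnpul1 lies below 0 in all 3 panels.

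Tra2b and Tra2a, the TRA2 splicing activators, were among the members that differed most. Tra2b (ENSMUSG00000022858, chr16:22244549-22266005) had 555, 429.6 and 610.5 CPM in Au_TCPP replicates 1 to 3, 159, 156 and 155 CPM in Cu_TCPP and 126, 124 and 121 CPM in Control. Every Au_TCPP library lay above every other library, and Au_TCPP replicate 2 was the lowest of its group. The log2 fold change against Control was 2.1 with SE 0.11 (adjusted p = 1.21e-09), a 4.30-fold difference. Counting sign, 97.5% of the genes tested had a lower log2 fold change. Tra2a (ENSMUSG00000029817, chr6:49243924-49264033) had 358, 299 and 384 CPM in Au_TCPP, 111, 98.8 and 96.9 CPM in Cu_TCPP and 133, 118 and 119 CPM in Control. Its Au_TCPP libraries were again all above the rest, at 2.81-fold the Control level (log2 fold change 1.49, SE 0.10, adjusted p = 1.52e-08).

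Srsf7 and Srsf3 are SR proteins that also take part in mRNA export, and both were higher. Srsf7 (ENSMUSG00000024097, chr17:80200089-80207305) had 436, 367 and 462 CPM in Au_TCPP, 176, 166 and 177 CPM in Cu_TCPP and 103, 97.1 and 95.9 CPM in Control. The 3 groups did not overlap and stood in the order Au_TCPP, Cu_TCPP, Control. Against Control, Srsf7 was 4.28-fold higher in Au_TCPP (log2 fold change 2.1, SE 0.10, adjusted p = 3.42e-10). Srsf3 (ENSMUSG00000071172, chr17:29032628-29043373) had 710, 607 and 660 CPM in Au_TCPP, 365, 355 and 362 CPM in Cu_TCPP and 197, 185 and 190 CPM in Control. It showed the same order of groups without overlap, and its fold against Control was 3.45 in Au_TCPP (log2 fold change 1.79, SE 0.09, adjusted p = 4.8e-10).

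These 4 genes are shown with the annotated exon that carries their premature stop, since the gene counts add up transcripts with and without it. Each stretch runs from the first base of the exon to the stop codon of the annotated NMD transcript, taken from GENCODE M21 on GRCm38 (mm10), 5′ to 3′ on the gene's strand, with the stop codon in capitals. The stretch is 34 of 456 bases at chr17:29039454-29039487 on the plus strand for Srsf3, and on the minus strand 28 of 460 bases at chr17:80205054-80205081 for Srsf7, 81 of 276 bases at chr16:22259181-22259261 for Tra2b and 144 of 306 bases at chr6:49252965-49253108 for Tra2a.
Srsf3: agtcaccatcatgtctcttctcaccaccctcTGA
Srsf7: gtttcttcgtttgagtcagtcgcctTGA
Tra2b: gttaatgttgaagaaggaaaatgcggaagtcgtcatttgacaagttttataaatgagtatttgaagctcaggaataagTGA
Tra2a: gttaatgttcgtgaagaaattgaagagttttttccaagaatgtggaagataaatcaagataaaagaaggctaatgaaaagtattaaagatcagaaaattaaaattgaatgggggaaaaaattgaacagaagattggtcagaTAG
An internal exon of this kind, holding the stop of an annotated NMD transcript and overlapping no exon of a protein-coding transcript, was found in 9 members, 7 of them Srsf or Tra2 genes (also Srsf4, Srsf9 and Srsf11, and the hnRNP genes Hnrnpl and Hnrnpll). Of the 9, 7 were called higher in Au_TCPP against Control, a share close to the 26 of 36 over all tested members, where 34.4% of all genes were higher. In Cu_TCPP against Control 6 of the 9 were called higher, beside 16 of 36 tested members and 19.2% of all genes. Annotated NMD transcripts of any structure were present for 25 of the 36 tested members. Their median log2 fold change in Au_TCPP against Control was 0.67, against 0.68 in the 11 members without one. These medians were 0.186 and 0.201 in Cu_TCPP against Control, and 0.375 and 0.168 in Au_TCPP against Cu_TCPP, differences that were not tested. Gene counts cannot show which transcript changed, and isoforms were not measured here.

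Srsf2, the SR protein known as SC35 that marks nuclear speckles, had 324, 313 and 348 CPM in Au_TCPP, 219, 211 and 206 CPM in Cu_TCPP and 143, 139.9 and 132 CPM in Control. The groups did not overlap, and Srsf2 was 2.37-fold higher in Au_TCPP than in Control (log2 fold change 1.24, SE 0.08, adjusted p = 8.92e-09). Its exons overlap those of Mfsd11 and Mettl23 on the opposite strand, and no source states whether strand was used in counting, so its value is uncertain. Srsf1, the SR protein also called SF2, averaged 439 ± 24.0 CPM in Au_TCPP, 276 ± 16.6 in Cu_TCPP and 247 ± 6.69 in Control (SD, n = 3 each), with a log2 fold change of 0.83 in Au_TCPP against Control. Srsf11 had a log2 fold change of 0.86 in the same comparison, and Srsf10, an SR-like protein that represses splicing when dephosphorylated, one of 0.71. Srsf6 (0.40) and Srsf9 (0.37) were called higher, but with library totals alone both fell on the other side of 0, at -0.02 and -0.06. The call for Srsf9 was also lost without any 1 of Au_TCPP replicates 1 and 3 and the 3 Control libraries (adjusted p 0.0556 to 0.0947) and with offsets for gene length (0.13, adjusted p = 0.422). Srsf4 and Srsf5 were not called, with log2 fold changes of -0.12 and -0.04 (adjusted p = 0.29 and 0.745), but with library totals alone they were the 2 Srsf genes called lower.

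**Figure D2:**
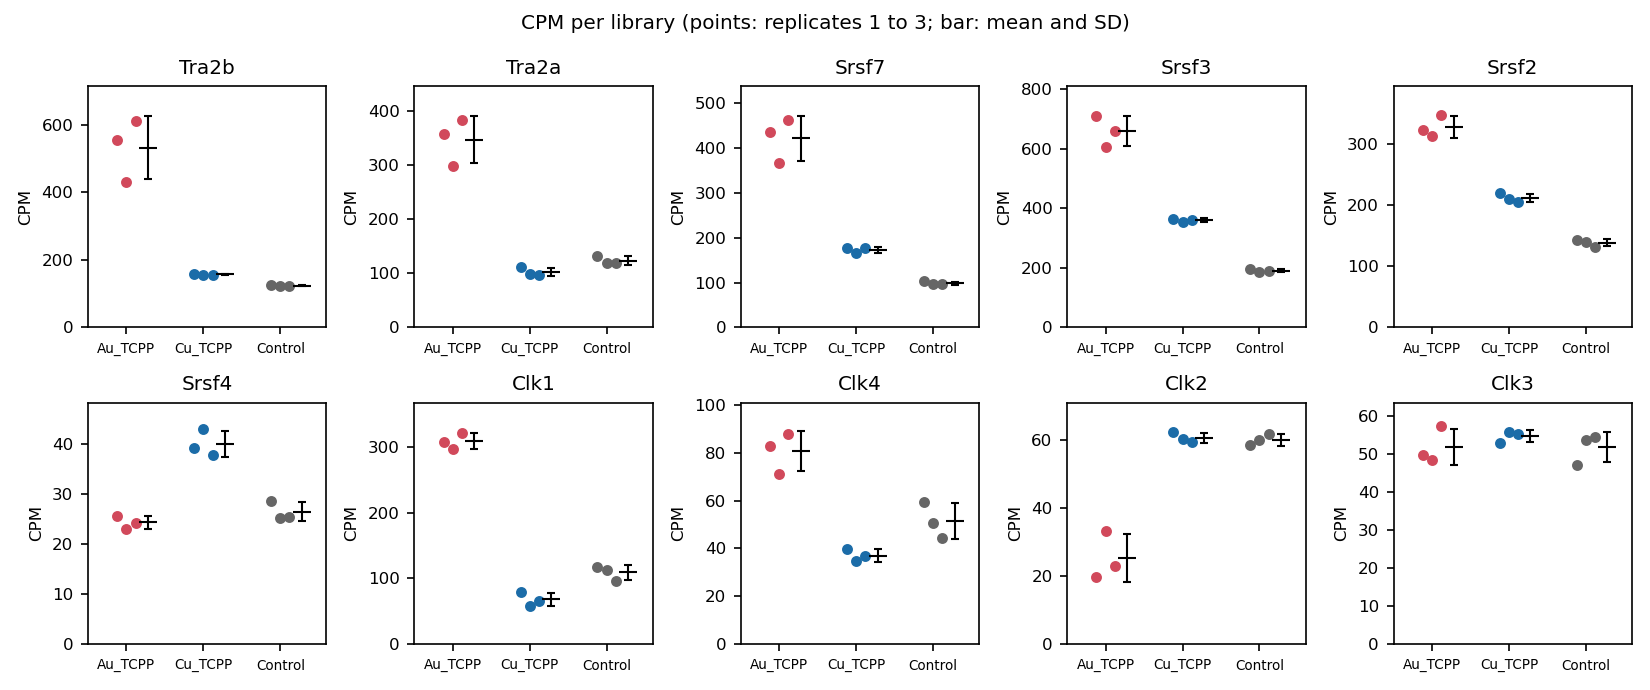
CPM (y axis, from 0, scaled per gene) of the Tra2 genes, 4 Srsf genes and the 4 Clk genes in each library of Au_TCPP, Cu_TCPP and Control (x axis); points are replicates 1 to 3 and bars the mean and SD. Tra2b, Tra2a and Clk1 are high in Au_TCPP alone, Srsf7, Srsf3 and Srsf2 step down across the groups, Srsf4 is high in Cu_TCPP alone, and Clk2 is low in Au_TCPP alone.

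Of the 20 hnRNP genes, 14 were called higher in Au_TCPP than in Control, 4 lower and 2 not called, with a median log2 fold change of 0.66. Library totals alone gave 9 higher and 5 lower, and Hnrnpm and Hnrnpu then changed sign. Hnrnpdl, a relative of the mRNA decay factor Hnrnpd, had 426, 354 and 446 CPM in Au_TCPP, 189, 181 and 175 CPM in Cu_TCPP and 175, 176 and 166 CPM in Control. Its Au_TCPP libraries were all above the others (log2 fold change 1.25 against Control, SE 0.10, adjusted p = 3.56e-08). Hnrnph2 and Hnrnph1, which bind G-rich RNA, were higher by 1.12 and 1.08 on the log2 scale (adjusted p = 2.1e-07 and 2.11e-07). Hnrnph2 had 158, 135 and 173 CPM in Au_TCPP, 105.5, 95.0 and 97.1 CPM in Cu_TCPP and 79.0, 68.2 and 66.7 CPM in Control. Hnrnph1 averaged 807 ± 105 CPM in Au_TCPP, 363 ± 14.7 in Cu_TCPP and 381 ± 14.8 in Control. For Hnrnph2 the 3 groups were apart, while for Hnrnph1 only Au_TCPP was. Hnrnpf, of the same subfamily, had 380, 279 and 394 CPM in Au_TCPP, 303, 315 and 319.5 CPM in Cu_TCPP and 201, 205 and 207 CPM in Control, so that both materials lay above Control and overlapped each other. Hnrnpc, which binds U tracts, had 462, 514 and 511 CPM in Au_TCPP, 292, 249.5 and 281 CPM in Cu_TCPP and 286, 282 and 295 CPM in Control, with Au_TCPP alone apart. Hnrnpa1, which promotes exon skipping, had 1409, 1152 and 1393 CPM in Au_TCPP, 829, 846 and 825 CPM in Cu_TCPP and 806, 807 and 786 CPM in Control. Hnrnph3 (0.92), Hnrnpc (0.78), Hnrnpf (0.78), Hnrnpd (0.75), Hnrnpa1 (0.72), Hnrnpa3 (0.68), Hnrnpa2b1 (0.66), Hnrnpab (0.65) and Hnrnpll (0.55) had smaller log2 fold changes in the same direction. Hnrnpa1 and Hnrnpa3 have many processed pseudogenes that can split their reads, so their values are uncertain, as are those of Hnrnpab and Hnrnph3, whose exons overlap Phykpl and Rufy2 on the opposite strand. Exons of Hnrnpk and Hnrnpu likewise overlap Rmi1 and Cox20, and those of Hnrnpm overlap March2 on the same strand. Hnrnpu (0.35), a nuclear matrix protein, and Hnrnpm (0.27) were called on the TMM scale with the smallest log2 fold changes. The call for Hnrnpm was lost without any 1 of Au_TCPP replicates 1 and 3 and the 3 Control libraries (adjusted p 0.0615 to 0.122) and without a filter on low counts (0.0791).

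The 4 hnRNP genes called lower in Au_TCPP were Hnrnpul1, Hnrnpul2, Hnrnpa0 and Hnrnpr. Hnrnpul1 (ENSMUSG00000040725, chr7:25721165-25754757), a relative of Hnrnpu that takes part in the response to DNA breaks, had 144, 130.3 and 134 CPM in Au_TCPP, 221, 267 and 240.0 CPM in Cu_TCPP and 296, 306 and 312 CPM in Control. The groups did not overlap, and the level in Au_TCPP was 2.24-fold below that in Control (log2 fold change -1.16, SE 0.09, adjusted p = 3.86e-08). Hnrnpul2, of the same subfamily, had 172, 171 and 180.0 CPM in Au_TCPP, 257, 297 and 253 CPM in Cu_TCPP and 249, 263 and 263 CPM in Control. Only its Au_TCPP libraries stood apart (log2 fold change -0.57 against Control, SE 0.09, adjusted p = 3.71e-05). Hnrnpa0, which binds AU-rich mRNA, had 191, 154 and 195 CPM in Au_TCPP, 257, 385 and 273 CPM in Cu_TCPP and 260.1, 261 and 276 CPM in Control, with a log2 fold change of -0.56 (SE 0.14, adjusted p = 0.00209). Its Au_TCPP libraries were the lowest, and Cu_TCPP replicate 2 was far above its group. Hnrnpr had 96.7, 109 and 111 CPM in Au_TCPP, 153, 145 and 149 CPM in Cu_TCPP and 149, 142 and 138 CPM in Control (log2 fold change -0.44, SE 0.08, adjusted p = 0.000252). At 22199 nucleotides it has the longest gene model of the members, and with offsets for gene length its difference turned to 0.24 higher. The mean length of the gene behind a count was 4607 nucleotides in Au_TCPP, 5650 in Cu_TCPP and 5688 in Control, and its part in these values was not tested beyond those offsets. Hnrnpk (0.23, adjusted p = 0.0533) and Hnrnpl (0.21, adjusted p = 0.168) were not called, but both were called higher without Au_TCPP replicate 2 (adjusted p = 0.000109 and 0.000142) and with offsets for gene length (0.50 and 0.45). With library totals alone they stood at -0.20 and -0.22, and Hnrnpk was then called lower (adjusted p = 0.0363). DESeq2 also called Hnrnpk higher (adjusted p = 0.0373).

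**Figure D3:**
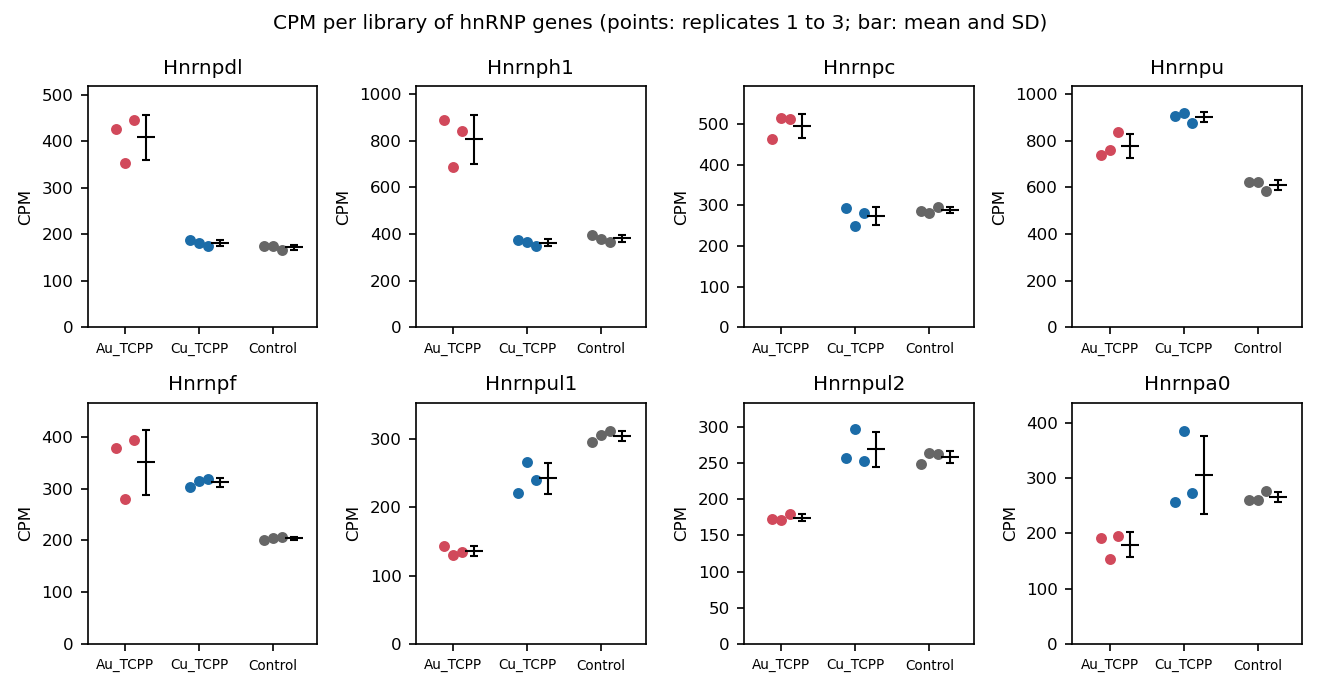
CPM (y axis, from 0, scaled per gene) of 8 hnRNP genes in each library of Au_TCPP, Cu_TCPP and Control (x axis); points are replicates 1 to 3 and bars the mean and SD. Hnrnpdl, Hnrnph1 and Hnrnpc are high in Au_TCPP, Hnrnpu and Hnrnpf are lowest in Control, and Hnrnpul1, Hnrnpul2 and Hnrnpa0 are lowest in Au_TCPP.

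The 4 CLK kinases, which phosphorylate SR proteins in the nucleus, went separate ways in Au_TCPP. Clk1 (ENSMUSG00000026034, chr1:58410189-58424066) had 308, 297 and 321 CPM in Au_TCPP, 79.0, 58.2 and 66.1 CPM in Cu_TCPP and 118, 112 and 96.6 CPM in Control. The 3 groups did not overlap, with Control in the middle, and Au_TCPP was 2.83-fold above Control (log2 fold change 1.502, SE 0.11, adjusted p = 2.53e-08). Clk4 (ENSMUSG00000020385, chr11:51261730-51281766), the closest relative of Clk1, had 83.1, 71.4 and 87.9 CPM in Au_TCPP, 39.9, 34.6 and 36.7 CPM in Cu_TCPP and 59.5, 50.9 and 44.3 CPM in Control. Its groups stood in the same order without overlap, and its fold in Au_TCPP against Control was 1.57 (log2 fold change 0.65, SE 0.11, adjusted p = 0.000128), a call lost with library totals alone (0.22, adjusted p = 0.0797). Clk2 (ENSMUSG00000068917, chr3:89164795-89176921) had 19.8, 33.3 and 22.9 CPM in Au_TCPP, 62.4, 60.3 and 59.5 CPM in Cu_TCPP and 58.4, 59.9 and 61.9 CPM in Control. Only the Au_TCPP libraries were low, 2.37-fold below Control (log2 fold change -1.24, SE 0.14, adjusted p = 1.8e-06), and Au_TCPP replicate 2 was the highest of them. Clk3 had 49.9, 48.6 and 57.4 CPM in Au_TCPP, 53.0, 55.9 and 55.5 CPM in Cu_TCPP and 47.3, 53.7 and 54.6 CPM in Control. All groups overlapped (log2 fold change 0.0022 in Au_TCPP against Control, SE 0.09, adjusted p = 0.985), but its sign depended on the scaling, at -0.42 with library totals alone (adjusted p = 0.000486) and 0.36 with offsets for gene length (adjusted p = 0.00282). Clk3 exons overlap those of Edc3 on the opposite strand, so its counts are uncertain.

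Cu_TCPP was compared with the same Control libraries, so the 2 comparisons share their Control values. The spread of each gene was estimated over all 9 libraries, so the p-values here also carry the spread of the Au_TCPP libraries. With the 6 libraries of this comparison alone, 7381 genes were called, against 5617 in the main fit. In Cu_TCPP, SR proteins were mostly higher and Clk1 and Clk4 were lower. Of the 36 tested members, 16 were called higher and 3 lower, with a median log2 fold change of 0.19, where over all genes tested 40.4% were called, 19.2% higher and 21.2% lower. The libraries did not overlap for 26 members, 21 above and 5 below, where 29.4% of all genes lay above and 30.0% below. Called higher were 8 of 10 Srsf genes (median 0.52), Tra2b and 7 of 20 hnRNP genes (median 0.155), and called lower were Clk1, Clk4 and Hnrnpul1.

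Srsf3 had the largest difference of the members in Cu_TCPP, at 1.89-fold the Control level (log2 fold change 0.92, SE 0.08, adjusted p = 2.38e-06), followed by Srsf7 at 1.75-fold (0.81, SE 0.10, adjusted p = 1.8e-05). Srsf2 was 1.53-fold higher (0.61, SE 0.08, adjusted p = 5.2e-05). Srsf4, the SR protein known as SRp75, had 25.7, 23.0 and 24.3 CPM in Au_TCPP, 39.2, 42.9 and 37.8 CPM in Cu_TCPP and 28.6, 25.3 and 25.4 CPM in Control. Its Cu_TCPP libraries lay above all others, while those of Au_TCPP and Control overlapped (Cu_TCPP against Control 0.60, SE 0.09, adjusted p = 0.00021). Srsf11 (0.58), Srsf10 (0.46) and Srsf6 (0.37) were also called higher. Srsf9 (0.34, adjusted p = 0.0482) was not called without Cu_TCPP replicate 2, its highest library of that group (0.15, adjusted p = 0.25), and its adjusted p passed 0.05 without Au_TCPP replicate 1 (0.0515) and without any 1 Control library (0.0834 to 0.122). It was not called with library totals alone (0.0754) or the 6 libraries alone (0.0677) either.

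Tra2b was higher in Cu_TCPP by 0.34 (SE 0.11, adjusted p = 0.0235), and this call was lost without Cu_TCPP replicate 1 or 3 or any 1 Control library (adjusted p 0.0562 to 0.074). Tra2a had a log2 fold change of -0.27 (SE 0.10, adjusted p = 0.0502) with no overlap between the groups, and it was called lower without Au_TCPP replicate 2 (adjusted p = 0.00552) or 3 (0.0365), with the 6 libraries alone (0.00375) and with library totals alone (0.00999). Srsf5, an SR protein known as SRp40, had -0.25 (adjusted p = 0.0645) and was called lower without Au_TCPP replicate 2 (0.00686) or 3 (0.0293) and with the 6 libraries alone (0.00186). Clk1 was 1.61-fold lower in Cu_TCPP than in Control (log2 fold change -0.68, SE 0.11, adjusted p = 0.000258) and Clk4 1.39-fold lower (-0.48, SE 0.11, adjusted p = 0.00413). Clk2 and Clk3 differed by 0.02 and 0.08 and were not called (adjusted p = 0.931 and 0.513).

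Among the hnRNP genes, Hnrnpab had the largest difference in Cu_TCPP (0.71, SE 0.13, adjusted p = 0.000588), with 530, 403 and 538 CPM in Au_TCPP, 461, 607 and 462 CPM in Cu_TCPP and 299.5, 303 and 334 CPM in Control. Cu_TCPP replicate 2 was the highest of all 9 libraries, and the libraries of both materials lay above Control. Hnrnpu had 737, 759 and 835 CPM in Au_TCPP, 906, 919.8 and 877 CPM in Cu_TCPP and 621, 625 and 585 CPM in Control. Here Cu_TCPP was highest, without overlap, at 1.48-fold the Control level (0.56, SE 0.08, adjusted p = 0.00011). Hnrnpf (0.61), Hnrnpd (0.52), Hnrnph2 (0.48), Hnrnpm (0.38) and Hnrnpa2b1 (0.29) were the others called higher, the last of them not without Cu_TCPP replicate 1 or any 1 Control library (adjusted p 0.054 to 0.0704). Hnrnpul1 was lower by 0.33 on the log2 scale (adjusted p = 0.00858), a call lost without Cu_TCPP replicate 1 (adjusted p = 0.0608) and with offsets for gene length (0.0607). Hnrnpdl (0.08), Hnrnph1 (-0.07), Hnrnpc (-0.07), Hnrnpa1 (0.06) and Hnrnpa3 (0.02) were among the 12 that were not called.

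The direct comparison of Au_TCPP with Cu_TCPP tests the difference between the 2 materials, whose names differ by gold, at the same time of treatment. Of the 36 tested members, 18 were called higher in Au_TCPP and 7 lower, with a median log2 fold change of 0.27, where over all genes tested 65.9% were called, 34.6% higher and 31.3% lower. The libraries did not overlap for 24 members, 17 above and 7 below, where 34.4% of all genes lay above and 32.6% below. With library totals alone, which moves the median of all genes by -0.33, 14 members were higher and 15 lower, and the medians of the Srsf and hnRNP genes turned to -0.11 and -0.18.

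Clk1 differed most between the materials, 4.55-fold higher in Au_TCPP than in Cu_TCPP (log2 fold change 2.19, SE 0.11, adjusted p = 9.71e-10). Tra2a and Tra2b were each 3.39-fold higher (1.76, SE 0.11 for both, adjusted p = 3.3e-09 and 5.9e-09), and Srsf7 was 2.44-fold higher (1.29, SE 0.09, adjusted p = 2.58e-08). Hnrnpdl (1.17), Hnrnph1 (1.15) and Clk4 (1.12) followed. These 7 kept their direction and call with library totals alone and without each single library in turn.

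Of the 7 members called lower in Au_TCPP than in Cu_TCPP, Clk2 had the largest difference (-1.26, SE 0.14, adjusted p = 1.74e-06), followed by Hnrnpul1 (-0.83, SE 0.09, adjusted p = 1.18e-06) and Hnrnpa0 (-0.77, SE 0.14, adjusted p = 0.000189). Srsf4 was 1.64-fold lower (-0.72, SE 0.10, adjusted p = 1.24e-05), the one SR gene called in this direction on the TMM scale. Hnrnpul2 (-0.63) was also lower. With library totals alone Srsf6 (-0.34, adjusted p = 0.00186) and Srsf9 (-0.35, adjusted p = 0.0212) were called lower too. Srsf9 was likewise called lower with offsets for gene length (-0.33, adjusted p = 0.0466). Hnrnpr (-0.50) and Hnrnpu (-0.21) were called lower, but with offsets for gene length they stood at 0.10 and 0.16, and the call for Hnrnpu was lost without Au_TCPP replicate 1 (adjusted p = 0.06) or Cu_TCPP replicate 3 (0.0551). Srsf10 (0.25, adjusted p = 0.0312) was called higher, but turned to -0.12 with library totals alone and was not called without any 1 of Au_TCPP replicates 1 and 3, Cu_TCPP replicates 2 and 3 and the Control libraries (adjusted p 0.0791 to 0.229), and Hnrnpll (0.43) not without Au_TCPP replicate 1 or 3 or Cu_TCPP replicate 1 (0.055 to 0.0736) or with library totals alone (0.702). Srsf11, Hnrnpd, Hnrnpf and Hnrnpk were not called, but were called higher without Au_TCPP replicate 2, with log2 fold changes of 0.41, 0.31, 0.27 and 0.19. With library totals alone they stood at -0.10, -0.15, -0.21 and -0.27, and Hnrnpf and Hnrnpk were then called lower (adjusted p = 0.0401 and 0.00692).

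Levels can be compared between genes in the deposited FPKM, which divide by gene length and are given as mean ± SD with n = 3. Hnrnpa1 had the highest FPKM of the members in every group, 408 ± 47.2 in Au_TCPP, 266 ± 3.50 in Cu_TCPP and 249 ± 2.55 in Control. In Control it was followed by Hnrnpa2b1 at 116 ± 0.824 and Hnrnpab at 110.3 ± 7.30 FPKM, which do not differ beyond their spread, and then by Hnrnpa0 at 97.4 ± 3.68 and Hnrnpk at 87.6 ± 1.69. Srsf7 ranked 3 of 37 in Au_TCPP at 181 ± 22.3 FPKM and 17 in Control at 42.4 ± 1.36. Its neighbours in that Au_TCPP order, Hnrnpa2b1 at 183 ± 19.7 and Hnrnpab at 172 ± 27.8 FPKM, lay within its spread. Hnrnpa0 went the other way, ranking 14 in Au_TCPP and 4 in Control.

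Among the CLK kinases the order of FPKM levels was not the same in every group. Clk1 had 37.1 ± 1.69 FPKM in Au_TCPP, 8.39 ± 1.29 in Cu_TCPP and 13.2 ± 1.27 in Control, and Clk2 had 4.66 ± 1.27, 11.5 ± 0.273 and 11.1 ± 0.375 FPKM in the same groups. Clk1 lay above Clk2 in every Au_TCPP library and, by a smaller margin, in every Control library, while in every Cu_TCPP library Clk2 was the higher. Clk3 was the least abundant CLK kinase in Control, at 6.03 ± 0.486 FPKM. As a share of all counts, the 37 members took 1.06 ± 0.04% in Au_TCPP, 1.03 ± 0.03% in Cu_TCPP and 0.898 ± 0.016% in Control, and the 2 Tra2 genes 0.0727 ± 0.0073%, 0.0279 ± 0.0013% and 0.0275 ± 0.0013%.

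**Figure D4:**
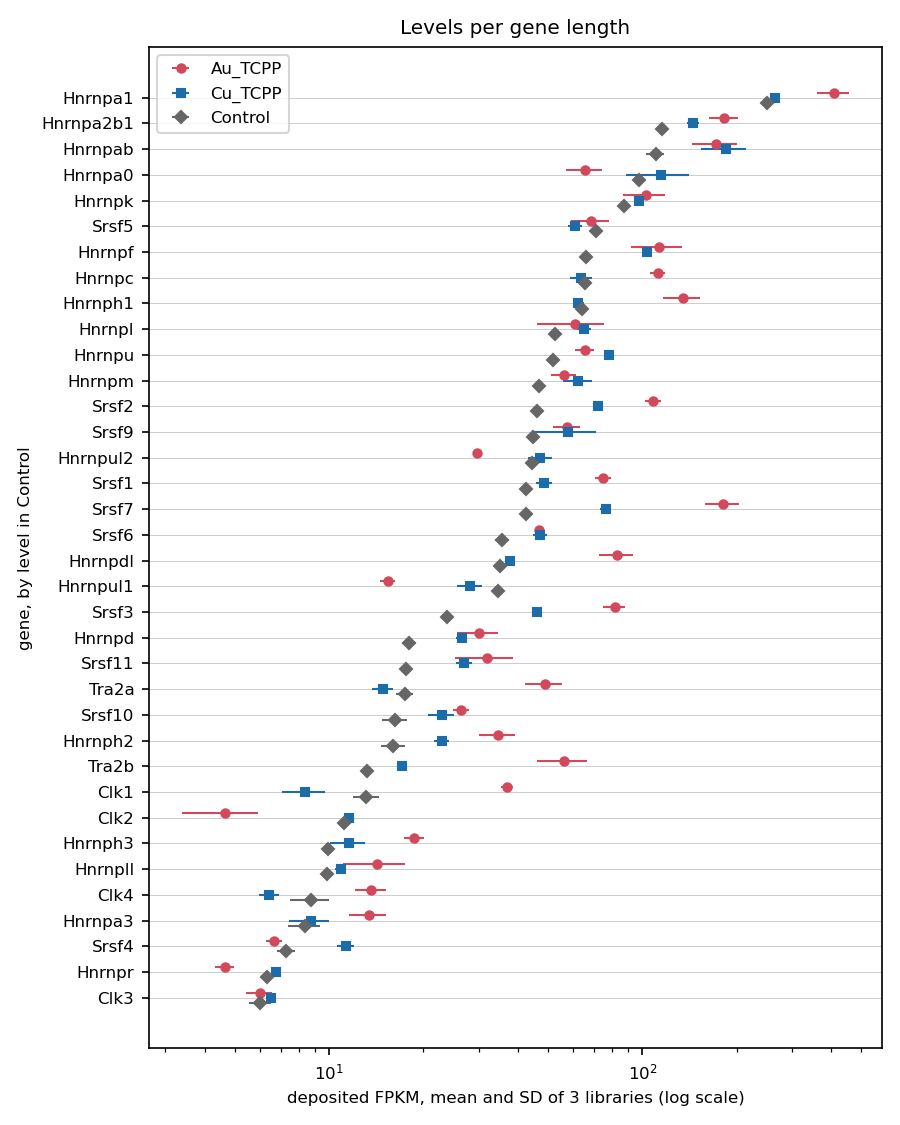
Deposited FPKM (x axis, log scale, mean and SD of 3 libraries) of the 36 members with counts (y axis, ordered by level in Control) in Au_TCPP, Cu_TCPP and Control. Hnrnpa1 is highest in each group, and Srsf7, Srsf3, Tra2b, Tra2a and Clk1 stand well to the right in Au_TCPP while Hnrnpul1, Hnrnpa0 and Clk2 stand to the left.

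Promoters of the members were also described. Windows from 250 bases before to 50 after the gene start, from RefSeq on GRCm38.p6, matched 34 of the 37 members, with 46 promoters in all. Their median GC content was 66.8%, against 52.7% over 32851 promoters. Both strands were searched for 7 motifs. The GC box GGGCGG was in 84.8% of the members' promoters and 35.7% of all, CCGGAAG, an ETS motif, in 23.9% and 8.86%, the E-box CACGTG in 13.0% and 7.15%, CCAAT in 50% and 37.4%, and TATAAA in 8.70% and 13.6%. The cyclic AMP response element TGACGTCA was in the promoters of Clk4 and Tra2a, 4.35% of the members' windows and 1.79% of all. A heat shock element (GAA, NN, TTC, NN and GAA in a row) was in 3 of the members' 46 windows, 6.52%, and in 0.603% of all. These 3 windows belong to 2 genes only, Tra2b and Hnrnpa2b1. A match is a description of the letters and not a bound site. Shares count windows and not genes, so the 11 member windows with the ETS motif come from 7 of 34 genes. The comparison set was all promoters and was not limited to the genes tested here. The part of GC content or of expression in these shares was not tested. Tra2b and Srsf7 had the same log2 fold change of 2.1 in Au_TCPP against Control, and Srsf7 had no heat shock element. A link between a match and a difference was not tested. The 250 bases before the start of Tra2b lie at chr16:22266006-22266255 on the minus strand, and the match, in capitals, begins 207 bases before the start.
Tra2b promoter: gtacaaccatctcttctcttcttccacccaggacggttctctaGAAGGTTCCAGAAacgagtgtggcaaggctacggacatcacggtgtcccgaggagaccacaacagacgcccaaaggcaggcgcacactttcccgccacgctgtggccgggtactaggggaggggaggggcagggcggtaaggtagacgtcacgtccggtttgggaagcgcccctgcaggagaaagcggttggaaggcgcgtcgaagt

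Other genes of the splicing pathway were taken from lists fixed by function. Over all genes tested, 34.4% were called higher and 34.7% lower in Au_TCPP against Control, 19.2% and 21.2% in Cu_TCPP against Control, and 34.6% and 31.3% in Au_TCPP against Cu_TCPP. Of 18 tested hnRNP-type genes under other symbols, 10 were called higher and 3 lower in Au_TCPP against Control, 5 and 3 in Cu_TCPP against Control, and 7 and 4 in Au_TCPP against Cu_TCPP. With library totals alone every one of these lists turned towards lower in the comparisons with Au_TCPP, and that split follows each in brackets below as higher and lower; here it was 6 and 8 against Control and 5 and 10 against Cu_TCPP. Cirbp, a cold-inducible RNA-binding protein, averaged 27.9 ± 4.70 CPM in Au_TCPP, 35.5 ± 1.60 in Cu_TCPP and 66.0 ± 4.78 in Control (log2 fold changes against Control -1.24 in Au_TCPP and -0.89 in Cu_TCPP). Of 24 SR-related proteins, 9 were higher and 9 lower in Au_TCPP against Control (5 and 14), 8 and 1 in Cu_TCPP against Control, and 6 and 13 in Au_TCPP against Cu_TCPP (5 and 17). The shares against Control in Au_TCPP were near those of all genes. Rsrp1, an arginine- and serine-rich protein, averaged 467.5 ± 91.0 CPM in Au_TCPP, 83.6 ± 8.81 in Cu_TCPP and 189 ± 8.24 in Control, so that Control lay between the materials as it did for Clk1 and Clk4. Rsrc2, of the same kind, averaged 278.5 ± 28.7 CPM in Au_TCPP, 79.0 ± 9.47 in Cu_TCPP and 72.2 ± 6.41 in Control (log2 fold change 1.95 in Au_TCPP against Control, adjusted p = 2.17e-09). Scaf1 of this list was lower in Au_TCPP, at 52.9 ± 4.22 CPM, with 142 ± 19.0 in Cu_TCPP and 134 ± 3.34 in Control (-1.34 in Au_TCPP against Control, adjusted p = 3.16e-08).

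Of 15 tested SR kinases, phosphatase subunits and import receptors, 5 were higher and 6 lower in Au_TCPP against Control (2 and 11), 5 and 3 in Cu_TCPP against Control, and 3 and 7 in Au_TCPP against Cu_TCPP (2 and 11), with shares in Au_TCPP against Control again near those of all genes. Srpk2, a cytoplasmic SR kinase, averaged 75.6 ± 11.2 CPM in Au_TCPP, 62.9 ± 4.999 in Cu_TCPP and 91.4 ± 1.496 in Control and was called lower in Cu_TCPP (-0.54, adjusted p = 0.000851). Ppp1r10, a nuclear regulator of protein phosphatase 1, averaged 142 ± 20.4 CPM in Au_TCPP, 57.3 ± 6.43 in Cu_TCPP and 51.3 ± 1.37 in Control (1.47 in Au_TCPP against Control, adjusted p = 2.72e-08). Dyrk3 went the other way, at 13.1 ± 1.96 CPM in Au_TCPP, 26.3 ± 1.68 in Cu_TCPP and 34.2 ± 1.86 in Control (-1.38 in Au_TCPP against Control, adjusted p = 8.82e-08). Of 19 tested other regulators of alternative splicing, 6 were higher and 9 lower in Au_TCPP against Control (0 and 13), 7 and 3 in Cu_TCPP against Control, and 4 and 10 in Au_TCPP against Cu_TCPP (0 and 14).

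Of 48 tested core spliceosome genes, 29 were higher and 11 lower in Au_TCPP against Control (18 and 15), 27 and 1 in Cu_TCPP against Control, and 18 and 15 in Au_TCPP against Cu_TCPP (11 and 25). Their median log2 fold change against Control was 0.32 in each material on the TMM scale, but with library totals alone it was -0.11 in Au_TCPP and 0.27 in Cu_TCPP. U2af1, the small subunit that reads the AG of the 3′ splice site, averaged 129 ± 8.38 CPM in Au_TCPP, 80.2 ± 2.02 in Cu_TCPP and 58.3 ± 1.59 in Control. Prpf8 was lower in Au_TCPP, at 266 ± 28.6 CPM, with 645 ± 3.25 in Cu_TCPP and 586 ± 10.7 in Control (-1.28 in Au_TCPP against Cu_TCPP, adjusted p = 1.58e-08). Of 18 NMD and exon junction genes, 8 were higher and 6 lower in Au_TCPP against Control (3 and 9), 11 and 3 in Cu_TCPP against Control, and 6 and 7 in Au_TCPP against Cu_TCPP (3 and 11). Magoh, a core exon junction protein, averaged 81.7 ± 3.25 CPM in Au_TCPP, 40.4 ± 1.31 in Cu_TCPP and 27.95 ± 1.18 in Control. Smg5, an NMD factor that recruits mRNA decay enzymes, averaged 77.2 ± 1.79 CPM in Au_TCPP, 207 ± 7.07 in Cu_TCPP and 137 ± 0.988 in Control, so it was lower with gold (-0.82) and higher without it (0.60) relative to Control, with a log2 fold change of -1.42 between Au_TCPP and Cu_TCPP.

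**Figure D5:**
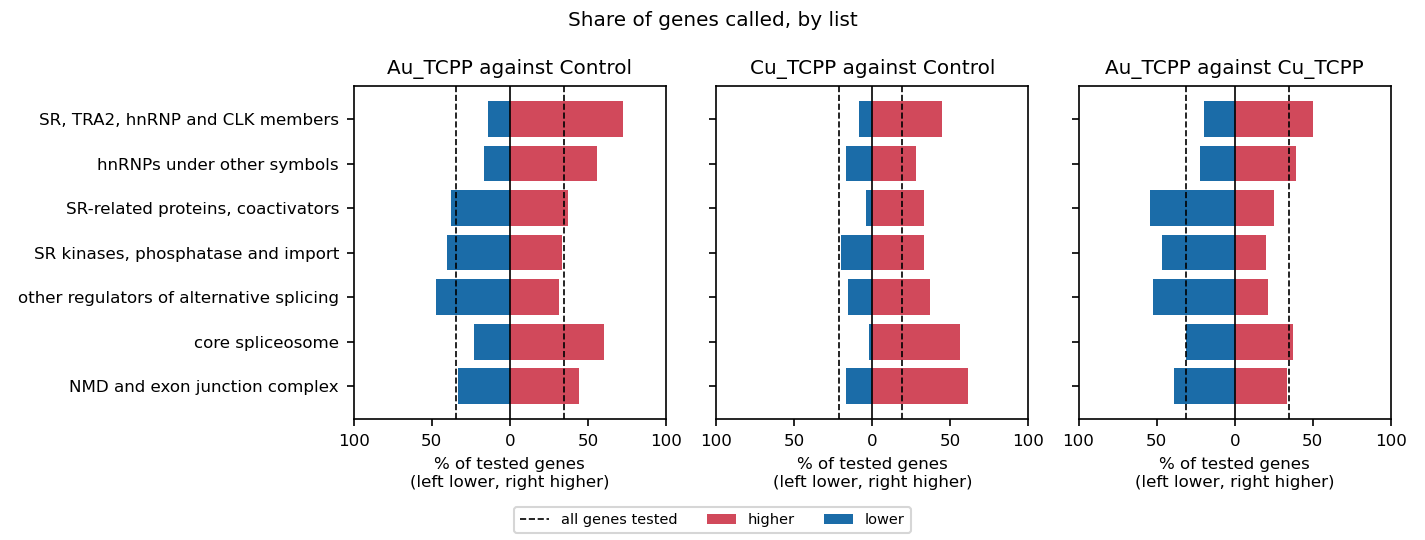
Percent of tested genes called higher (right, red) and lower (left, blue) for the 36 members and 6 pathway lists in each comparison; dashed lines mark the percents over all genes tested, 34.4% higher and 34.7% lower in Au_TCPP against Control. The members have the longest bar to the right of the 7 sets in Au_TCPP against Control and in Au_TCPP against Cu_TCPP. In Cu_TCPP against Control their bar (16 of 36) is shorter than those of the NMD and exon junction list (11 of 18) and the core spliceosome (27 of 48).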

How the data were processed

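RNA was measured in 9 libraries, prepared per the labels' protocols with a QIAGEN kit for single-cell RNA (QIAseq FX). The submitters' processing notes name mm10, Bowtie 0.12.9, Cufflinks 2.1.1 and HTSeq; their roles and any strand setting are not stated. The deposited table holds read counts per gene, not normalized by the authors, per the file headers. It also holds FPKM, which the authors scaled by length and depth, per the file headers; they carry a factor per library (0.875 to 1.238) of unstated origin. Gene lengths were used as deposited. The authors' own comparison columns were not used.

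The test was edgeR's (4.0.16, R 4.3.3) robust quasi-likelihood F-test on TMM-normalized counts. One model with group means was fitted to the 9 libraries after filterByExpr, and p-values were adjusted by Benjamini-Hochberg over 13915 genes. CPM use TMM-scaled totals, SE is the absolute log2 fold change over the square root of F, and marker sums and the floor for Srsf12 use raw totals. Alternatives were RLE factors, library totals, 2 other filters, DESeq2 1.42.0, limma 3.58.1 on log2 FPKM with pseudocounts of 1 and 0.1, the 6 libraries of a comparison, a replicate block, splines on gene length with 5 degrees of freedom, and leaving out each library. The labels state no pairing of samples by replicate number, and the main model used none. Members, lists and motifs were chosen with earlier results of these data known. All members could be named; single-library values are printed at least for the 4 with the smallest p per direction and comparison and for all Clk and Tra2 genes, and examples from the lists come from the 3 called genes with the smallest p. Python 3.11.15, numpy 2.4.6 and pandas 2.3.3 made the summaries and matplotlib 3.10.9 the figures.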

Additional observations from a re-analysis of the deposited data

How the results depend on the processing

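Of the members called on the TMM scale, 24 of 26 higher and 4 of 5 lower in Au_TCPP against Control, 13 of 16 and 2 of 3 in Cu_TCPP against Control, and 16 of 18 and 5 of 7 in Au_TCPP against Cu_TCPP kept their call and direction in every alternative other than library totals alone. Library totals alone kept 18, 4, 13, 2, 14 and 5 of them as well. With library totals, members lower numbered 9 in Au_TCPP against Control and 15 in Au_TCPP against Cu_TCPP. For members called on either scale, log2 fold changes then turned in Au_TCPP against Control for Clk3 (-0.42), Hnrnpk (-0.20), Hnrnpm (-0.15), Hnrnpu (-0.075), Srsf6 (-0.0195) and Srsf9 (-0.059), and in Au_TCPP against Cu_TCPP for Hnrnpa2b1 (-0.0028), Hnrnpf (-0.21), Hnrnpk (-0.27), Srsf10 (-0.12), Srsf6 (-0.34) and Srsf9 (-0.35). Members called on neither scale also turned, namely Hnrnpl (-0.22) in Au_TCPP against Control, Clk2 (-0.03) and Hnrnpa3 (-0.03) in Cu_TCPP against Control, and Srsf11 (-0.10), Hnrnpd (-0.15) and Srsf5 (-0.15) in Au_TCPP against Cu_TCPP. Among members called with or without them, offsets for gene length turned Hnrnpr in Au_TCPP against Control (0.24) and Hnrnpr (0.10), Hnrnpu (0.16) and Srsf9 (-0.33) in Au_TCPP against Cu_TCPP. The cause was not tested. Members lower in Cu_TCPP against Control were 5 with the 6 libraries alone and 5 with the replicate block, in which the genes called numbered 9505, 5508 and 9059 in the 3 comparisons. Correlations of same-numbered libraries lay between -0.08 and 0.09. They show no pairing by number but cannot exclude one, so whether the block stands for a pairing is not known.

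Without 1 library, genes called ranged from 8859 to 10109 in Au_TCPP against Control, 4226 to 7179 in Cu_TCPP against Control and 8521 to 9622 in Au_TCPP against Cu_TCPP. Members higher ranged from 24 to 28, 13 to 18 and 16 to 22, and members lower from 5 to 5, 2 to 5 and 6 to 7, in that order of comparisons. The 2 fits with 5 members lower in Cu_TCPP left out Au_TCPP replicate 2 or 3, and the fit with 2 left out Cu_TCPP replicate 1. Groups of 3 libraries, an unknown strand setting and gene-level counts limit all values.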
